A study of Mus musculus with 2 samples.

Results

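Cxcl9, Cxcl10 and Cxcl16 are 3 chemokine genes among 55386 features counted in single CD45+ cells of the mouse aorta. They were chosen by name, on levels already seen in these same libraries, so their levels are described here and not tested. All 3 were detected in both libraries, and all 3 passed the minimum of 20 unique molecular identifiers (UMIs, each marking 1 captured transcript) in the comparison of the libraries. The mice carried the RankCre and Rosa26eYFP alleles in both conditions and were 16 weeks old. Cre is made where the Rank gene is active, and it switches on a yellow fluorescent reporter (listed as EYFP, here called Yfp) that daughter cells keep, which in this line tags macrophages of yolk sac origin but not blood monocytes. The steady state library held sorted cells of 3 untreated animals in 1 pool, and the AngII library those of 2 animals after 10 days of angiotensin II, a peptide hormone that raises blood pressure and inflames the vessel wall, at 1.8 µg/kg/min. With 1 library per condition there was no replicate, no difference between conditions could be tested, and a difference between conditions cannot be told apart from a difference between the 2 preparations. The labels name adventitia as the tissue and describe the sort as made from whole aortas.

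Chemokines are small secreted proteins that steer leukocytes along a gradient. Cxcl9 and Cxcl10 bind the receptor Cxcr3, which is carried by activated T cells, NK cells and some dendritic cells. Cxcl9 is known as a target of interferon gamma, and Cxcl10 as a target of both interferon gamma and the type I interferons. Cxcl16 is made as a membrane-anchored protein that Adam10 and Adam17 can shed, and it binds Cxcr6 on T cells and innate lymphoid cells. Macrophages and dendritic cells are known sources of all of them.

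Cxcl9 (ENSMUSG00000029417.9) lies on chromosome 5, from 92321347 to 92328079 on the minus strand, and its longest transcript has 4 exons. Cxcl10 (ENSMUSG00000034855.13) is its neighbour on the same strand, from 92346638 to 92348889, with 18558 bases between the genes. Cxcl16 (ENSMUSG00000018920.11) lies apart, on chromosome 11 from 70453983 to 70459984 on the minus strand, and has 5 exons in its longest transcript. The positions count from 1 on the GRCm38 assembly and come from GENCODE M21.

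The upstream sequences of the neighbouring pair are shown because the results below set each gene against interferon targets. They were taken from RefSeq (GRCm38.p6), where 2 of the 3 members were matched, and run over the 250 bases before the start of the gene. Capitals mark matches to 3 motifs searched on both strands, namely the interferon-stimulated response element core GAAANNGAAA, the gamma-activated site TTCNNNGAA and the kappa B motif GGGNNTTCC.
Cxcl9, chr5:92328080-92328329, minus strand: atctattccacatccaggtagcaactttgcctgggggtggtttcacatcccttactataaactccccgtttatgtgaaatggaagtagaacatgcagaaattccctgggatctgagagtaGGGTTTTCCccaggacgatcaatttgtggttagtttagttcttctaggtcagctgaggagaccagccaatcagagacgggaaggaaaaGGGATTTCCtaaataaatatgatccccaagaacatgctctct
Cxcl10, chr5:92348890-92349139, minus strand: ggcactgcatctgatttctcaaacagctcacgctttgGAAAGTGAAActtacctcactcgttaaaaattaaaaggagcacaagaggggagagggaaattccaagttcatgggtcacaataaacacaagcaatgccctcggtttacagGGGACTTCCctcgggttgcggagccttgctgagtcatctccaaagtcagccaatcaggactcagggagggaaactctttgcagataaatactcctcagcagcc
The Cxcl9 window held the kappa B letters GGGTTTTCC at -130 and GGGATTTCC at -42, counted from the start of the gene. The Cxcl10 window held the response element core GAAAGTGAAA at -213 and the kappa B letters GGGACTTCC at -103. Of 32851 windows of the same length, 2.98% held the response element core, 7.02% the gamma-activated site and 4.98% the kappa B motif. The motifs were picked after the windows had been seen, and a match describes letters only.

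The steady state library was small and deep, and the AngII library large and shallow. At steady state 306 of 346 barcodes were kept, with a median of 9105 UMIs per cell, and on AngII 4198 of 4419, with a median of 1092. No barcode was shared. Cells were placed in classes by counting detected marker genes, which left 3.59% of the kept cells ungated at steady state and 19.8% on AngII. In each compared class the lists' own markers led, with some exceptions that touch results below. The 10 macrophages of steady state outside the named macrophage classes had 0 macrophage markers and 1 monocyte marker (Fn1) among their 10 leading genes, so that class was not compared between libraries. Type-2 dendritic cells of steady state were led by histone and Top2a transcripts beside Cd209a, and classical monocytes on AngII by immunoglobulin transcripts (Ighg2c, Jchain, Igkc). The 9 macrophages of steady state gated by Ear2 and Retnla had 1 of their own markers (Retnla) among their 10 leading genes. Levels are counts per 1000000 UMIs of the class (CPM), and intervals are 95% intervals that cover counting error only. As reads with a UMI also appear in cells that do not make a transcript, the T and B cells served as the background for each share of cells.

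The steady state level of Cxcl9 came from a handful of cells. At steady state 424 Cxcl9 UMIs were found in 7 of 306 cells (2.29%), and none of the 88 T and B cells had any. The highest 3 cells held 177, 158 and 53 UMIs and together made up 91.5% of the total. All 3 were gated to a class of only 9 macrophages marked by Ear2 and Retnla, which reached 2011 CPM (1816-2221), and 1178 CPM without its highest cell. The other 4 cells were a macrophage outside the named classes with 25 UMIs, the only migratory dendritic cell with 9, and a pair of type-1 dendritic cells with 1 each. In contrast, none of the 113 resident macrophages, the class marked by Lyve1 and Folr2, had a Cxcl9 UMI, which allows at most 2.38 CPM at a floor of 3 UMIs. This count of 0 depends on the gate, as the macrophage with 25 Cxcl9 UMIs outside the class had 15 Lyve1 and 11 EYFP UMIs. Cxcl9 was the leading gene of the Ear2 Retnla class, although it was not among the markers that defined it. The gate was narrow for the cells with 177 and 53 UMIs, which had 4 of 8 macrophage markers and led the next class by 1 marker. With a lead of 2 markers required, Cxcl9 in macrophages against all other cells of this library fell from 5.47 to 0.29 on the log2 scale.

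On AngII, Cxcl9 was spread over more cells and more classes, with few cells still carrying most of it. There 537 UMIs lay in 89 of 4198 cells (2.12%), and 61 of these cells had a single UMI. The highest cell held 159 UMIs (29.6%), and the 6 cells with at least 10 UMIs held 77.1%. These 6 cells were in 5 classes. They comprised macrophages outside the named classes with 159 and 62 UMIs, a macrophage marked by Arg1 and Spp1 with 81, a type-1 dendritic cell with 57, a classical monocyte with 41 and a resident macrophage with 14.

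By class on AngII, macrophages outside the named classes stood highest for Cxcl9 in summed CPM, at 116 CPM (102-132), and 39.0 CPM without the highest cell. Their 3 highest cells held 94.1% of 238 UMIs, and 15 of 811 cells (1.85%) had any. Arg1 Spp1 macrophages followed at 66.8 CPM (53.4-82.5), where 81 of 86 UMIs were in 1 cell and 3.93 CPM remained without it. Type-1 dendritic cells, which cross-present antigen to CD8 T cells, had 50.7 CPM (40.9-62.2), and their interval overlapped that of the Arg1 Spp1 class. In type-1 dendritic cells Cxcl9 was found in 19 of 223 cells (8.52%, 5.21-13.0), the largest share among classes of over 30 cells, and 19.7 CPM remained without the highest cell. Classical monocytes had 24.8 CPM (4.07 without the highest cell), resident macrophages 11.9 CPM (8.47-16.3) and Ear2 Retnla macrophages 9.61 CPM (4.96-16.8), the last 2 with overlapping intervals. T and B cells had a Cxcl9 UMI in 2 of 404 cells (0.495%), at a median of 1238.5 UMIs per cell against 1516 in type-1 dendritic cells.

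Cxcl10 at steady state was sparse, and 1 resident macrophage carried most of it. There were 101 Cxcl10 UMIs in 16 of 306 cells, of which 8 had a single UMI, and none in the 88 T and B cells. The highest cell, a resident macrophage of 11572 UMIs, held 69 of them (68.3%). Resident macrophages therefore stood at 66.5 CPM (53.1-82.4), with UMIs in 6 of 113 cells, and at 12.0 CPM without that cell. Next came classical monocytes at 20.2 CPM and type-2 dendritic cells at 20.1 CPM, each with UMIs in 2 cells, and none of the 12 type-1 dendritic cells had any.

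On AngII, Cxcl10 lay mostly in macrophages, with resident macrophages at the top in CPM but not in share of cells. It was found with 844 UMIs in 198 of 4198 cells (4.72%), and macrophages held 74.6% of these UMIs while holding 43.6% of all UMIs. Resident macrophages had 115 CPM (103-127) in 41 of 534 cells, and 78.4 CPM without the highest cell, which held 121 UMIs. Their 3 highest cells held 64.0% of 375 UMIs, so the place of this class at the top in CPM rests on few cells. Arg1 Spp1 macrophages had 73.0 CPM (59.0-89.3), of which 53 of 94 UMIs were in 1 cell, and Ear2 Retnla macrophages 65.6 CPM (52.2-81.5) in 33 of 234 cells (14.1%), with overlapping intervals. Below these stood macrophages outside the named classes at 38.6 CPM, classical monocytes at 35.4, type-2 dendritic cells at 34.9, nonclassical monocytes at 31.4 and neutrophils at 23.8, whose intervals overlapped. In type-2 dendritic cells 37 of 41 UMIs were in 1 cell, and 3.48 CPM remained without it.

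The classes with little or no Cxcl10 on AngII were dendritic and lymphoid. Type-1 dendritic cells, which were high for Cxcl9, had 3 Cxcl10 UMIs in 223 cells, 1.65 CPM (0.341-4.83). None of the 39 migratory dendritic cells and none of the 111 B cells had any. T cells had 12 UMIs in 3 of 293 cells, so the share of T and B cells with a UMI was 0.743%, against 7.68% of resident macrophages at a median of 2249 UMIs. The 15 cells with at least 10 Cxcl10 UMIs held 54.4% of the total. Of these, 7 were resident macrophages, while the Ear2 Retnla macrophages and the classical monocytes each gave 2.

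Cxcl16 was broad where the other genes were patchy. At steady state 360 UMIs lay in 92 of 306 cells (30.1%), and the highest cell held 8.61% of them. Resident macrophages had 173 CPM (151-197), with a UMI in 69 of 113 cells (61.1%), and Ear2 Retnla macrophages had 192 CPM (135-264), an interval that overlaps the former. Type-1 dendritic cells had 133 CPM (91.8-185) in 7 of 12 cells. Monocytes were low, with 1 UMI in 10 classical and 0 in 14 nonclassical cells, and type-2 dendritic cells had 3 UMIs in 1 of 16 cells. Among T and B cells 2 of 88 (2.27%) had Cxcl16, and 7 of their 8 UMIs were in 1 B cell.

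On AngII, migratory dendritic cells, the Ccr7 and Fscn1 cells that travel to lymph nodes, carried the most Cxcl16. They had 696 CPM (605-798) with a UMI in 27 of 39 cells (69.2%), which was 3.61 times (3.13-4.16) the level of all other cells. Next were Arg1 Spp1 macrophages at 338 CPM (307-372) and macrophages outside the named classes at 314 CPM (291-340), with overlapping intervals, then resident macrophages at 256 CPM (239-274) and nonclassical monocytes at 239 CPM (169-328). Type-2 dendritic cells at 182 CPM, type-1 dendritic cells at 160 and Ear2 Retnla macrophages at 150 followed, neighbours with overlapping intervals. Classical monocytes had 117 CPM (103-133), neutrophils 73.3, B cells 63.3 and T cells 18.3. In all, 3622 UMIs lay in 1089 cells (25.9%), and the highest cell held 0.939%. T and B cells on AngII had Cxcl16 in 7.43% of cells.

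**Figure D1:**
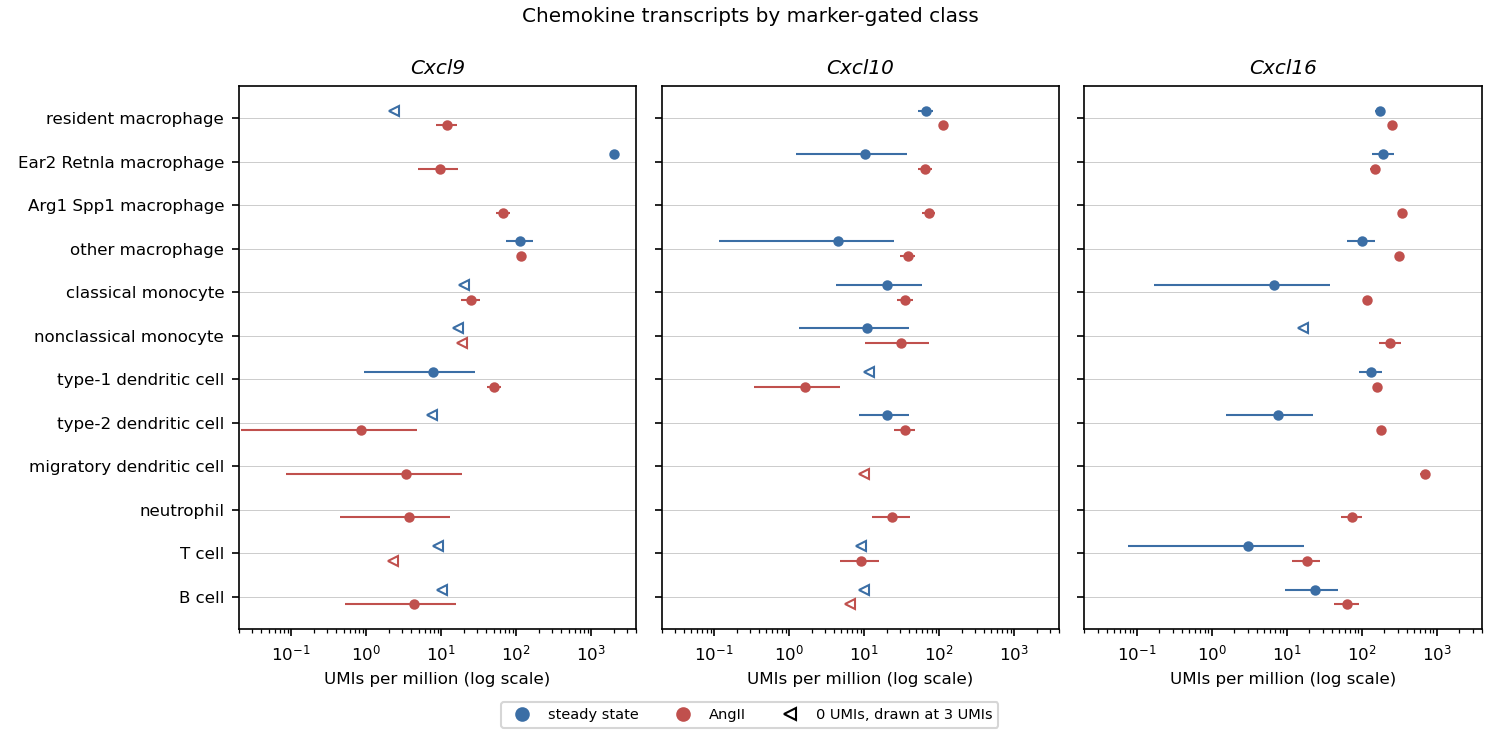
Level of each gene by marker-gated class, in CPM on a log axis, at steady state (blue) and on AngII (red), with 95% counting intervals; open triangles mark classes with 0 UMIs and are drawn at the floor of 3 UMIs, and classes of under 9 cells are left out. Cxcl9 stands at 2011 CPM in the Ear2 Retnla macrophages of steady state, type-1 dendritic cells on AngII pair 50.7 CPM of Cxcl9 with 1.65 CPM of Cxcl10, and Cxcl16 peaks at 696 CPM in migratory dendritic cells.

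After each cell was thinned to 1000 UMIs, so that cells of both libraries could be set side by side, each gene was still found in macrophages of both. On AngII Cxcl9 was left in 1.62%, Cxcl10 in 4.18% and Cxcl16 in 21.6% of 1052 macrophages, while 749 shallower ones were left out. At steady state it was 3.08%, 0.769% and 16.9% of 130 macrophages, with 2 left out. The T and B cells had 0% (Cxcl9), 0.826% (Cxcl10) and 3.31% (Cxcl16) on AngII, and 0%, 0% and 1.15% at steady state. The migratory dendritic cells kept Cxcl16 in 58.3% (36.6-77.9) of 24 thinned cells.

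How unevenly each transcript was held is summed up by the number of cells that carry the first 50% of its UMIs. On AngII this took 3 cells for Cxcl9, 12 for Cxcl10 and 144 for Cxcl16, and at steady state 2, 1 and 17. Cells with a UMI were deeper than cells without, at medians of 2182 against 1082 UMIs for Cxcl9, 3030 against 1060 for Cxcl10 and 4007 against 919 for Cxcl16 on AngII.

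**Figure D2:**
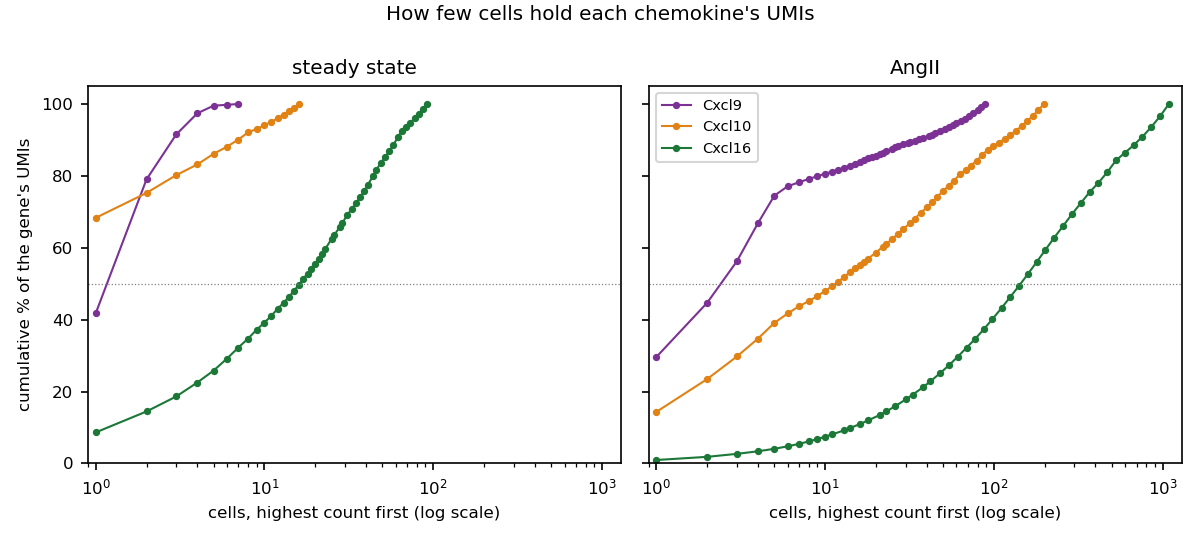
Share of all UMIs of each gene (percent, vertical axis) held by its highest cells, ranked from the highest down (log axis), in each library. The curve of Cxcl9 starts at 41.7% with its first cell at steady state and at 29.6% on AngII, that of Cxcl10 at 68.3% and 14.3%, and that of Cxcl16 at 8.61% and 0.939%.

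The comparison of the design sets AngII against steady state. Over all cells Cxcl9 stood lower on AngII, at 0.257 times its steady state level (0.225-0.292), whereas Cxcl10 stood at 1.69 times (1.38-2.10) and Cxcl16 at 2.04 times (1.83-2.28). In macrophages the ratios were 0.194 (0.168-0.223), 1.54 (1.23-1.96) and 1.62 (1.43-1.84). Without the macrophages outside the named classes they were 0.0884, 1.60 and 1.44. The direction of Cxcl10 in macrophages did not hold in all settings: its log2 ratio of 0.63 became -0.95 without barcodes that held markers of 2 lineages, -0.10 with the mean of each cell's CPM and 2.59 without the highest cell of each library. Among 11414 genes with at least 20 UMIs, 8.21% were at least 2-fold higher and 9.03% at least 2-fold lower in macrophages, with a median ratio of 0.972. Of the 3 members, only Cxcl9 passed 2-fold in macrophages.

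The change of Cxcl9 was not the same in all classes. In Ear2 Retnla macrophages it went from 2011 to 9.61 CPM, a ratio of 0.00478 (0.00245-0.00844), but the 388 steady state UMIs came from 3 of 9 cells. In resident macrophages it went from 0 UMIs in 113 cells to 39 UMIs in 12 of 534 cells, at least 5.01-fold higher on AngII. On the log2 scale this bound was 2.33, and it fell to 0.68 without barcodes that held markers of 2 lineages and to 0.013 (from -0.75) with gates drawn on thinned cells, which gives no direction. The bound also depends on the gate, which left the steady state macrophage with 25 Cxcl9 and 15 Lyve1 UMIs outside this class. In type-1 dendritic cells it went from 2 to 92 UMIs, a ratio of 6.51 (1.75-54.5), but 57 of the 92 UMIs were in 1 cell. Without the 3 cells of each library with the most Cxcl9, the ratio in macrophages was -0.71 on the log2 scale (-1.38 to 0.0053), against -2.37 with them.

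For Cxcl10, the comparison in resident macrophages changed direction with the setting. With all UMIs summed, the level was 1.72 times higher on AngII (1.36-2.21), against 7.77% of 10011 genes at least 2-fold higher in this class and 7.5% at least 2-fold lower, with a median of 1.01. Without the highest cell of each library it was 2.71 on the log2 scale, up from 0.78. The mean of each cell's CPM gave -0.11, with gates drawn on thinned cells it was -2.21, and without barcodes that held markers of 2 lineages it was -1.81, so no direction can be given that holds for all settings. Ear2 Retnla macrophages had 2 Cxcl10 UMIs at steady state and 82 on AngII, a ratio of 6.33 (1.70-53.2).

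Cxcl16 stood higher on AngII in resident macrophages by 1.48 times (1.28-1.73), and in macrophages and resident macrophages its direction held in each setting tried. Thinning to 1000 UMIs brought the log2 ratio from 0.70 to 0.19 in macrophages (-0.36 to 0.79) and from 0.57 to 0.15 in resident macrophages (-0.47 to 0.81). Without barcodes that held markers of 2 lineages it was 0.26 (-0.014 to 0.54) and 0.23 (-0.12 to 0.59), so that all 4 of these intervals included 0. Unthinned shares of macrophages went the other way, from 59.1% at a median depth of 10328.5 UMIs to 35.2% at 1181, and so were not read as an order. The wider differences were outside the macrophages. Type-2 dendritic cells went from 7.54 to 182 CPM (24.1 times, 8.15-118), classical monocytes from 6.74 to 117 CPM (17.4 times, 3.09-691), and nonclassical monocytes from 0 UMIs to 239 CPM (at least 14.4-fold higher), where 38 UMIs lay in 4 of 26 cells and 148 CPM remained without the highest cell. The steady state levels of type-2 dendritic cells and classical monocytes were 3 UMIs in 1 of 16 cells and 1 UMI in 10 cells. These counts lie at or below the floor of 3 UMIs, so the size of both ratios is uncertain. Type-1 dendritic cells stood at 1.21 times (0.844-1.77) and Ear2 Retnla macrophages at 0.781 times (0.546-1.14), both with intervals that include 1. B cells had 2.68 times the steady state level (1.15-7.24), but all 7 of their steady state UMIs were in 1 cell, and 13 of 29 on AngII were in 1 cell. This ratio therefore rests on few cells, and the part of background in the results was not tested.

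**Figure D3:**
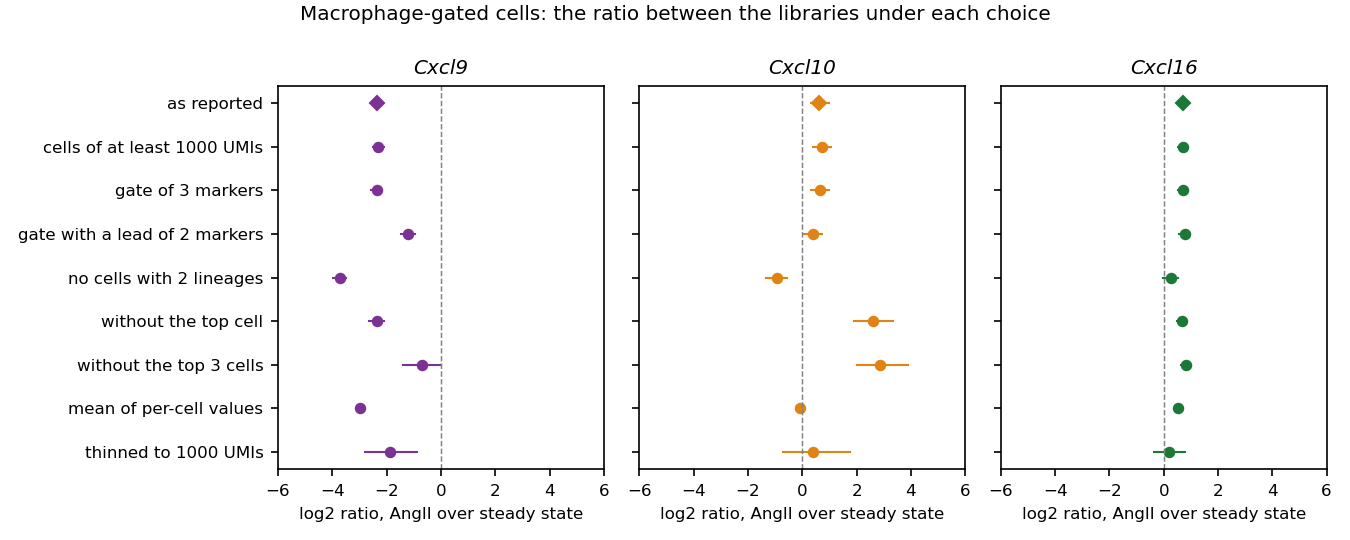
Log2 ratio of AngII over steady state CPM in macrophages (horizontal axis) for each gene, as reported (diamonds) and under 8 other settings (circles), with 95% counting intervals where the setting gives one. Cxcl9 stays below 0, Cxcl10 lies on both sides of 0, from -0.95 without barcodes of 2 lineages to 2.87 without the 3 highest cells, and Cxcl16 stays above 0, down to 0.19 after thinning.

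Ifit2, an interferon-induced protein that binds foreign RNA, and Isg15, a ubiquitin-like modifier, mark cells that answer to interferon, and Cxcl10 followed them closely. On AngII 118 cells held both transcripts, 84 held Ifit2 only, 662 Isg15 only and 3334 neither. Cxcl10 was found in 39.8% (30.9-49.3) of the cells with both, 20.2% of those with Ifit2 only, 9.67% of those with Isg15 only and 2.10% of those with neither. The levels were 369, 94.7, 32.3 and 11.1 CPM. The 118 cells with both carried 58.6% of all Cxcl10 UMIs. These groups also differed in depth, with medians of 6804, 1662.5, 3405.5 and 966 UMIs per cell.

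Cxcl16 showed no such gradient and Cxcl9 a partial one. Cxcl16 had 159, 198, 220 and 196 CPM in the same order of groups, although its share of cells was 49.2% in cells with both and 22.6% in cells with neither. Cxcl9 had 87.3 CPM in cells with both, where 81 of 117 UMIs were in 1 cell, 6.76 with Ifit2 only, 51.9 with Isg15 only and 10.4 with neither.

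**Figure D4:**
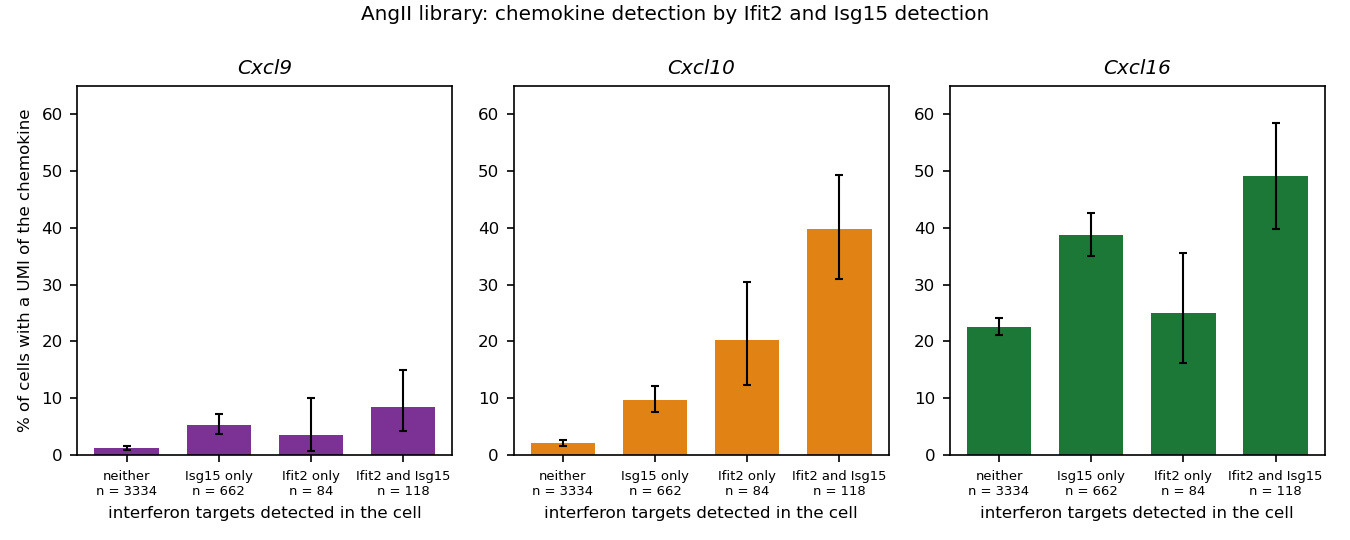
Share of AngII cells with a UMI of each gene (percent, vertical axis) in cells with neither Ifit2 nor Isg15, with Isg15 only, with Ifit2 only and with both, with 95% Clopper-Pearson intervals and n in cells; shares are not corrected for depth. Cxcl10 goes from 2.10% to 39.8% and Cxcl9 from 1.23% to 8.47%, while Cxcl16 is found in 22.6% of cells with neither and 49.2% of cells with both.

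As deeper cells show more of every gene, shares were also compared within 10 strata of depth and within classes, by Mantel-Haenszel ratios of the share with a member UMI in cells with against cells without the target. On AngII Cxcl10 was 6.18 times (4.68-8.16) as frequent with Ifit2 and 3.90 times (2.84-5.33) with Isg15. Cxcl9 was 2.73 times (1.46-5.12) as frequent with Ifit2 and 3.75 times (2.33-6.05) with Isg15. For Cxcl16 both ratios were near 1, at 0.978 (0.842-1.13) and 0.974 (0.888-1.07). Some variation in depth remains within a stratum, and its part in the ratios was not tested.

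Among the macrophage classes the ratio of Cxcl10 with Ifit2 was highest in resident macrophages, and it was not above 1 beyond counting error in every class. In resident macrophages of AngII Cxcl10 was in 22 of 48 cells with Ifit2 (45.8%) and in 19 of 486 without (3.91%), a ratio within depth of 10.4 (5.84-18.5). Its level there was 734 CPM against 14.9, and 3 cells with 121, 77 and 42 UMIs were among those with Ifit2, which held 333 UMIs in all. Ratios were 8.46 (5.05-14.2) in macrophages outside the named classes, 6.15 (2.35-16.1) in classical monocytes and 4.93 (2.57-9.47) in Ear2 Retnla macrophages. In Arg1 Spp1 macrophages the ratio was 1.59 (0.562-4.52), with 3 of 12 against 15 of 210 cells, and the cell of that class with 53 Cxcl10 UMIs had 0 of Ifit2 and 2 of Isg15, beside 8 each of Gbp2 and Gbp5. T and B cells had Cxcl10 in 1 of 28 cells with Ifit2 and in 2 of 376 without.

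In all macrophages of AngII, CPM with Ifit2 over CPM without was 13.6 for Cxcl10, 3.24 for Cxcl9 and 0.916 for Cxcl16, while 3.04% of 10906 genes were at least 2-fold higher with Ifit2 (median ratio 0.953). The resident macrophages with 121, 77 and 42 Cxcl10 UMIs were among the cells with Ifit2, which held 413 Cxcl10 UMIs in all. Of the 117 Cxcl9 UMIs in these cells with Ifit2, 81 were in 1 Arg1 Spp1 macrophage with 1 Ifit2 UMI, and the ratio for Cxcl9 was 18.0 (8.54-41.4) in resident macrophages but 0.140 (0.0287-0.415) in macrophages outside the named classes. With Isg15 the ratios were 7.35, 27.5 and 0.989, and 1.49% of genes were at least 2-fold higher (median 0.954). The 27.5-fold of Cxcl9 rests on the cells with 159, 81 and 62 Cxcl9 UMIs, which had 3, 1 and 2 Isg15 UMIs. In type-1 dendritic cells the share with Cxcl9 did not differ by either target beyond counting error. They had it in 0 of 10 cells with Ifit2 and 19 of 213 without, and in 7 of 58 with Isg15 and 12 of 165 without (ratio within depth 1.23, 0.525-2.87). Their Cxcl9 level was lower with Isg15, at 21.2 CPM against 69.7 CPM without (0.304 times, 0.162-0.533), and the cell with 57 of their 92 Cxcl9 UMIs had no Isg15.

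Read from the side of the chemokine, most cells with much Cxcl10 held the targets. On AngII 36 cells had at least 5 Cxcl10 UMIs, and 72.2% of them held Ifit2 and 86.1% Isg15. The shares were 23.5% and 49.4% in the 162 cells with 1 to 4 Cxcl10 UMIs, and 3.45% and 16.7% in the 4000 cells with none. The resident macrophage with 121 Cxcl10 UMIs had 30 Ifit2 and 39 Isg15 UMIs, and the steady state cell with 69 had 17 and 18. Of 222 cells with at least 5 Cxcl16 UMIs, at a median depth of 19036 UMIs, 8.11% held Ifit2 and 46.8% Isg15.

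At steady state the same comparison rested on few cells. Only 9 cells held both targets, of which 2 had Cxcl9, 2 had Cxcl10 and 6 had Cxcl16. Within depth and class, the Cxcl9 ratio with Isg15 was 4.20 (1.42-12.4), and it turned to -0.22 on the log2 scale when any of the other 9 type I targets took the place of Isg15. The intervals of the other ratios included 1. Of the 3 highest Cxcl9 cells, those with 177 and 53 UMIs had no Ifit2 and at most 1 Isg15 UMI, and the cell with 158 had 4 and 23.

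The wider lists of interferon targets gave each chemokine its own profile on AngII. Cxcl10 was more frequent, within depth and class, in cells with any of the 10 type I targets, from 2.29 times for Oasl2 to 6.18 times for Ifit2 (median 3.37), and all 10 intervals lay above 1. With the 8 interferon gamma targets its median ratio was 3.09, from Ciita (1.36) to Iigp1 (4.34), with 7 of 8 intervals above 1. Cxcl9 had the higher median with interferon gamma targets, 5.44, from Ciita (1.23) to Serpina3g (10.2), with 6 of 8 intervals above 1, against 3.01 with type I targets, from Mx1 (0.860) to Irf7 (4.89), with 7 of 10. For Cxcl16 the medians were 0.985 and 0.976, and no interval lay above 1 in either list. The difference between the lists was not tested. The share of all genes whose interval with Cxcl9 or Cxcl10 lies above 1 was not computed, so these counts have no background beside them.

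**Figure D5:**
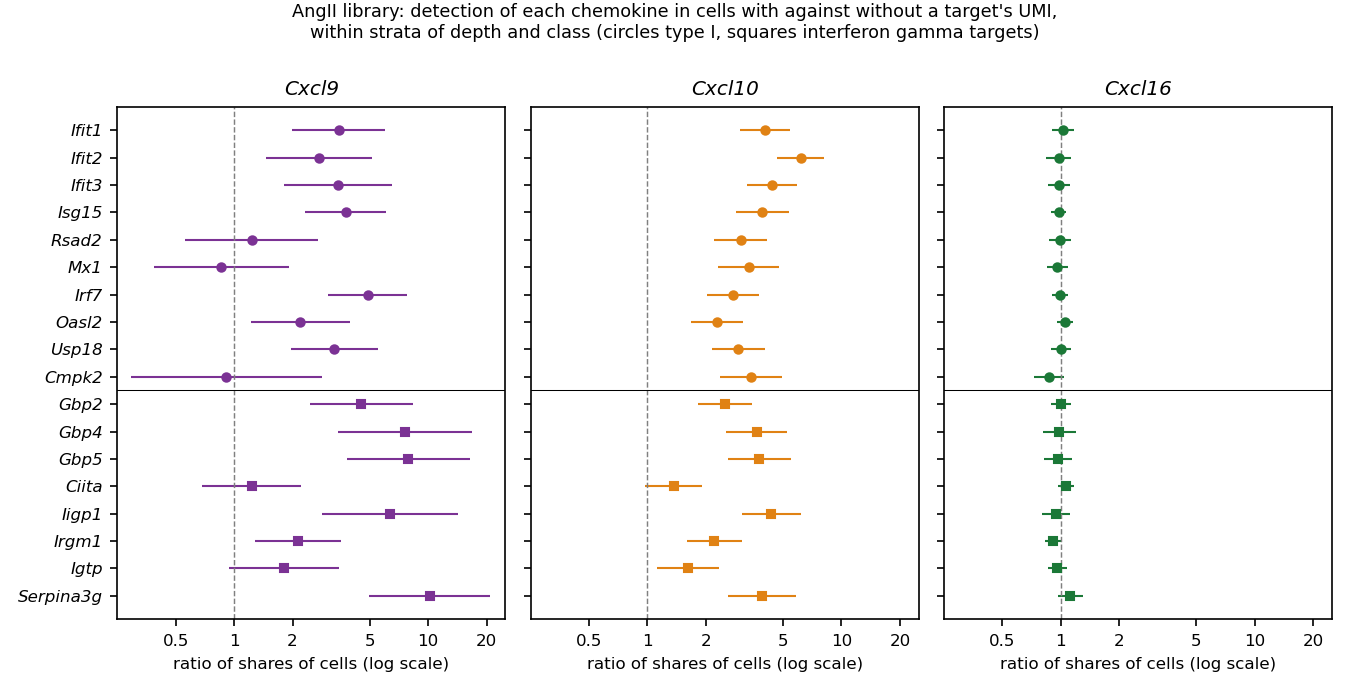
Ratio of the share of AngII cells with each gene between cells with and without a target's UMI, within 10 strata of depth and within classes (log axis), for 10 type I interferon targets (circles) and 8 interferon gamma targets (squares), with 95% intervals. The ratios of Cxcl10 all lie above 1, those of Cxcl9 reach 10.2 at Serpina3g and fall to 0.860 at Mx1, and those of Cxcl16 lie near 1.

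Between conditions, 4 of the 10 type I targets were at least 2-fold higher in AngII macrophages and 0 were 2-fold lower, with a median ratio of 1.81, beside 8.21% and 9.03% of all 11414 genes and their median of 0.972. They were Irf7 at 8.39 times (5.45-13.6), a factor that amplifies interferon production, Isg15 at 2.75, Ifit1 at 2.25 and Oasl2 at 2.15, while Ifit2 stood at 1.97 and Ifit3 at 1.001. Of the 8 interferon gamma targets 2 were at least 2-fold higher, namely Serpina3g at 16.9 (2.94-674) and Gbp4 at 3.95 (1.48-14.9), and 0 were 2-fold lower, with a median of 1.19, beside the same 8.21% and 9.03%.

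Cxcl9 and Cxcl10 shared cells on AngII more than depth gave. Both were found in 26 cells, 29.2% of the cells with Cxcl9 and 13.1% of those with Cxcl10. The ratio of shares was 5.09 (3.59-7.22) within depth and 4.83 (3.50-6.69) within depth and class. For Cxcl9 and Cxcl16 it was 1.002 (0.821-1.22) within depth and class, and for Cxcl10 and Cxcl16 1.09 (0.960-1.25). All 3 transcripts were seen together in 17 of 1233 cells that held any. The highest cells were largely separate, as the AngII cell with 159 Cxcl9 UMIs had 0 of Cxcl10 and that with 121 Cxcl10 UMIs had 0 of Cxcl9, though a resident macrophage held 14 and 77. At steady state 1 cell held both Cxcl9 and Cxcl10, and 6 of the 7 Cxcl9 cells also had Cxcl16.

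The receptors lay mostly outside the macrophages. Cxcr3, which answers to Cxcl9 and Cxcl10, had 44.9 CPM in T cells at steady state and 42.0 on AngII, in 8 of 38 and 27 of 293 cells. Type-1 dendritic cells, the class with the most frequent Cxcl9 on AngII, carried Cxcr3 as well, at 50.7 CPM (27.0-86.7) in 8 of 12 cells at steady state and 101 CPM (86.8-117) in 58 of 223 on AngII. Macrophages had 8.95 and 4.58 CPM. Cxcr6, the receptor of Cxcl16, had 117 and 84.0 CPM in T cells and stood highest in type-2 innate lymphoid cells, at 354 CPM in 7 of 8 cells and 784 CPM in 11 of 11, against 0.597 and 0.382 CPM in macrophages.

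The third Cxcr3 ligand and the interferons themselves were near the limit of detection. Cxcl11 had 0 UMIs at steady state and 15 UMIs in 13 cells on AngII. Ifng, the gene of interferon gamma, had 11 UMIs in 4 cells at steady state, of which 4 were in the migratory dendritic cell that also held Cxcl9 and Cxcl16, and 24 UMIs in 12 cells on AngII, 20 of them in 8 T cells. Ifnb1 had 0 and 2 UMIs. The receptor chains Ifngr1 and Ifngr2 were measured in macrophages at 264 and 85.9 CPM at steady state and at 361 and 147 CPM on AngII. Of the proteases that process these ligands, Adam10 had 115 and 117 CPM in macrophages and Adam17 71.0 and 122 CPM, a ratio of 1.72 (1.42-2.09). Dpp4, which trims Cxcl9 and Cxcl10 at the N-terminus, went from 1 to 115 UMIs in macrophages (24.5 times, 4.32-977).

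The study set Yfp+ against Yfp- macrophages, and a cell was called Yfp+ here from 1 EYFP UMI. By this call 103 of 132 macrophages (78.0%) were Yfp+ at steady state and 304 of 1801 (16.9%) on AngII, at median depths of 10328.5 and 1181 UMIs. Among T and B cells EYFP was found in 2 of 88 (2.27%) at steady state and 11 of 404 (2.72%) on AngII, at median depths of 6457.5 and 1238.5, and these shares are the background of the call. Yfp+ macrophages were deeper, with medians of 11501 against 5215 UMIs at steady state and 6089.5 against 1046 on AngII. In resident macrophages, Cxcl10 was higher in Yfp+ cells in both libraries, by 5.97 times (1.60-50.1) at steady state, with 82 UMIs in 5 of 87 cells against 2 in 1 of 26, and by 3.40 times (2.58-4.53) on AngII, with 312 UMIs in 20 of 173 cells against 63 in 21 of 361. In the same class 11.9% of 6911 genes at steady state and 2.73% of 9193 on AngII were at least 2-fold higher in Yfp+ cells, with median ratios of 1.04 and 1.03. Both highest Cxcl10 cells were Yfp+. On AngII the resident macrophages with 121, 77 and 42 Cxcl10 UMIs, which held 64.0% of the 375 UMIs of that class, were all Yfp+. The AngII ratio in this class leans on these cells, and without them the Yfp+ cells fell below the 47.3 CPM of the Yfp- cells. At steady state the whole class had 12.0 CPM without its highest cell, against 12.5 CPM in Yfp- cells. The direction of Cxcl10 in this class therefore rests on few cells in both libraries. Pooled over macrophage classes, the log2 ratio without the highest cell fell from 2.60 to 0.09 at steady state and from 1.01 to 0.53 on AngII.

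Cxcl16 in Yfp+ over Yfp- resident macrophages stood at 1.23 times (0.799-1.99) at steady state and 1.16 times (1.01-1.34) on AngII. The ratio on AngII was 1.40 (1.19-1.66) in macrophages outside the named classes and 2.12 (1.57-2.86) in Ear2 Retnla macrophages, where 30 of the 85 UMIs in Yfp+ cells were in 1 cell. For Cxcl9, all 413 UMIs of steady state macrophages lay in Yfp+ cells (at least 16.6-fold higher), of which there were 103 against 29, and these UMIs were in 4 cells. On AngII the Cxcl9 ratio over macrophage classes was 2.82, and its direction turned to -1.58 on the log2 scale without the highest cell. In Arg1 Spp1 macrophages the direction was opposite, with Cxcl10 at 0.0905 times (0.0108-0.336) and Cxcl9 at 0.0490 times in Yfp+ cells, where 2 and 1 UMIs lay in 24 Yfp+ cells and the cells with 53 and 81 UMIs were Yfp-.

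The genes most like each chemokine were ranked by Pearson correlation of log2(CPM + 10) over the 14 groups of library and class with at least 30 cells, among 10120 genes. These groups share libraries and depth, and the correlations are a description. Cxcl9 was closest to Gclm (0.868), Mpeg1 (0.835), Ucp2 (0.785), Fnip2 (0.781) and Tmem51 (0.775). Cxcl10 was closest to Ocrl (0.970), Adam15 (0.969), Mitf (0.963), Ctsa (0.952) and Camk1 (0.951). Cxcl16 was closest to Nckap1l (0.961), Zfp516 (0.951), Anxa4 (0.946), Slc8a1 (0.934) and Synj1 (0.932). Between the chemokines the values were lower, at 0.315 for Cxcl9 with Cxcl10, 0.509 for Cxcl9 with Cxcl16 and 0.474 for Cxcl10 with Cxcl16.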

How the data were processed

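Transcripts of single CD45+ aortic cells were measured in 1 droplet library per condition (10x 3′ v3.1). The authors mapped the reads with Cell Ranger 3.1.0 to GRCm38.p6, to which the reporter had been added, and deposited raw UMI counts for each gene and barcode. The steady state table summed to 4009678 UMIs and the AngII table to 20481854.

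Here the study's own filter was applied, which requires 300 to 6500 genes and a mitochondrial share of no more than 5%. Each cell was placed in the class with the most detected markers among 14 lists of 8 genes (at least 2, and more than any other list), and macrophages were split by 3 lists of 6 genes. The study's clusters were not used here, so classes can differ from the study's. Doublets were left in, and barcodes with markers of 2 lineages (203 of 306 kept cells at steady state, 1594 of 4198 on AngII) were removed as an alternative. That setting takes out most of the steady state cells. UMIs were summed over each class and given as CPM, with intervals from the exact Poisson distribution, while ratios carry exact conditional binomial intervals, shares Clopper-Pearson intervals, and shares within 10 strata of depth and classes were pooled by the Mantel-Haenszel method. A count of 0 was set to a floor of 3 UMIs. Cells were thinned to 1000 UMIs by random draws. Background shares are over genes with at least 20 UMIs. No p-value was computed, as each condition had 1 library.

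The genes named are the 3 members, a fixed list of 37 receptors, interferons, transducers, proteases and targets with the reporter, and the 5 genes most like each member. Of the list, the signal transducers are not reported here. Members, lists and gates were chosen with earlier results of these data known. Results were recomputed under 37 other settings, and 3 more were added after the data were seen. The steps were tested on simulated data. The work was done in Python 3.11.15 (pandas 2.3.3, SciPy 1.17.1, NumPy 2.4.6), and plots were drawn with Matplotlib 3.10.9.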

Additional observations from a re-analysis of the deposited data

Results flagged for a closer look

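Summed over cells, Cxcl9 moved in opposite directions between conditions in different classes. Its CPM on AngII was at least 5.01-fold higher than at steady state in resident macrophages and 6.51 times the steady state level in type-1 dendritic cells (1.75-54.5), but 0.00478 times in Ear2 Retnla macrophages (0.00245-0.00844). On the log2 scale the bound in resident macrophages, 2.33, fell to 0.68 without barcodes of 2 lineages and to 0.013 (from -0.75) with gates drawn on thinned cells. It also depends on the gate, which left a steady state macrophage with 25 Cxcl9 and 15 Lyve1 UMIs outside this class. Of the 92 UMIs in type-1 dendritic cells on AngII 57 were in 1 cell, and 19.7 CPM remained without it against 7.80 CPM at steady state. The difference between these classes was not tested, and the steady state level of the Ear2 Retnla class came from 3 cells.

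Barcodes that the filter had removed from the AngII library held Cxcl9 at 109 CPM (96.5-123), against 29.8 CPM in kept cells. Of the 270 UMIs in these 221 barcodes, 263 were in 1 barcode with 62106 UMIs and 6927 genes, which the gates placed among type-1 dendritic cells and which lay above the upper limit of 6500 genes. Cxcl10 had 22.6 CPM and Cxcl16 171 CPM in the removed barcodes.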

How the results depend on the processing

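Each result was recomputed under the alternatives, which gave 264 values for 47 results. Of these, 185 kept within their limits, 71 moved by more and 8 were classed as turned in direction. By sign alone, 192 of the 210 on a log2 scale kept their direction. A value could change sign and still be classed as within its limits. Cxcl10 with Isg15 at steady state went from 1.31 to -0.73 without the 3 highest cells and was so classed. The cause of a change was not tested. Ratios below are on the log2 scale, "against others" is macrophages against all other cells of the library, and SS is steady state. For AngII over SS the values as reported were -2.37 (Cxcl9), 0.63 (Cxcl10) and 0.70 (Cxcl16) in macrophages and 2.33 (a bound), 0.78 and 0.57 in resident macrophages.

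Without barcodes of 2 lineages, AngII over SS was -3.73 (Cxcl9), -0.95 (Cxcl10) and 0.26 (Cxcl16) in macrophages and 0.68 (a bound), -1.81 and 0.23 in resident macrophages. Against others became 8.76 (Cxcl9), 6.39 (Cxcl10) and 3.03 (Cxcl16) at SS and 0.49 (Cxcl9) and 0.50 (Cxcl16) on AngII. The macrophage levels became 645, 125 and 206 CPM at SS and 64.7 (Cxcl10) and 246 CPM (Cxcl16) on AngII.

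With a lead of 2 markers, Cxcl9 had -1.21 for AngII over SS, 0.29 against others and 131 CPM at SS, and 1.89 and 56.5 CPM on AngII. Cxcl10 against others was 1.39 on AngII, and Cxcl16 was 1.57 at SS, with 285 CPM on AngII.

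With the mean of each cell's CPM, AngII over SS was -2.995 for Cxcl9, and for Cxcl10 -0.10 in macrophages and -0.11 in resident macrophages. Against others was 6.82, 4.32 and 3.17 at SS and 0.40, 1.27 and 0.74 on AngII for Cxcl9, Cxcl10 and Cxcl16. Levels were 184 (Cxcl9) and 69.3 CPM (Cxcl10) at SS and 23.1, 64.4 and 250 CPM on AngII.

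Without the highest cell, AngII over SS for Cxcl10 was 2.59 in macrophages and 2.71 in resident macrophages. Against others was 0.61 for Cxcl10 and 2.61 for Cxcl16 at SS, and 0.79 (Cxcl9) and 1.63 (Cxcl10) on AngII. Levels were 142 (Cxcl9) and 10.8 CPM (Cxcl10) at SS and 27.6 and 65.1 CPM on AngII. Yfp+ over Yfp- became 0.089 for Cxcl10 at SS, and -1.58 (Cxcl9) and 0.53 (Cxcl10) on AngII. Without the 3 highest cells AngII over SS was -0.71 for Cxcl9 in macrophages, and 2.87 and 3.09 for Cxcl10 in macrophages and resident macrophages.

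Thinned to 1000 UMIs, AngII over SS was -1.88 for Cxcl9 and 0.19 for Cxcl16 in macrophages and 0.15 for Cxcl16 in resident macrophages, while Cxcl9 in resident macrophages gave a bound without a direction. Cxcl10 with Ifit2 on AngII was 3.097, Cxcl16 with Isg15 at SS 3.46, and Cxcl10 with Cxcl16 on AngII -0.43. With gates drawn on thinned cells, resident macrophages gave 0.013 (a bound) for Cxcl9 and -2.21 for Cxcl10. Thinning to 500 UMIs left 0.666% (Cxcl9), 2.33% (Cxcl10) and 11.6% (Cxcl16) of AngII and 9.09% (Cxcl16) of SS macrophages with a UMI, and to 2000 UMIs 8.24% (Cxcl10) and 36.5% (Cxcl16) of AngII and 25.2% (Cxcl16) of SS macrophages.

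With all deposited barcodes, Cxcl9 against others on AngII was 0.082, and the levels were 40.6, 72.4 and 255 CPM. With any of the other 9 type I targets in place of the target, Cxcl9 with Isg15 at SS was -0.22, Cxcl10 with Ifit2 on AngII 2.13 and Cxcl16 with Ifit2 at SS -0.52. Yfp+ over Yfp- was 0.69 for Cxcl9 on AngII without classes, and, from 2 EYFP UMIs, 1.34 for Cxcl10 on AngII and -0.20 for Cxcl16 at SS.

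No paired analysis was possible because each condition had 1 library. Depth limits the AngII library most, as 45.5% of its kept cells held under 1000 UMIs, so a cell with no UMI there was not taken to lack the transcript.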
